A study of Mus musculus with 8 samples.

Results

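The phase II conjugation enzymes examined here were the glutathione S-transferase (Gst), UDP-glucuronosyltransferase (Ugt) and sulfotransferase (Sult) genes that had a probe set of their own on the array. A probe set was taken where it carried a single gene symbol of these families, Gsta2, Gsta4 and Gstm3 were left out by the rule, and each gene was represented by its brightest probe set over 8 arrays. This gave 41 genes of 18193 genes measured, namely 18 Gst, 10 Ugt and 13 Sult genes, represented among 51 probe sets. No Ugt1 gene qualified, because the Ugt1a probe sets each carried 8 gene symbols. The livers came from male KK-Ay mice, a strain with inherited obesity and type 2 diabetes, at 14 weeks of age. The control group (CD, 4 mice) was fed AIN-93G, and the PD group (4 mice) was fed AIN-93G with 1 g/kg of a fat-soluble persimmon peel (PP) extract, both for 8 weeks. All mice carried the same strain background, no lean strain was included, and the 4 mice of each group were chosen among those fed by how near their plasma ketone bodies were to the average.

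These families make fat-soluble compounds easier to excrete. Gst enzymes couple electrophiles to glutathione, Ugt enzymes in the endoplasmic reticulum transfer a sugar, mostly glucuronic acid from UDP-glucuronic acid, and cytosolic Sult enzymes transfer sulfate from PAPS (3'-phosphoadenosine 5'-phosphosulfate). Their substrates include dietary plant phenols, steroid hormones, bilirubin and bile acids, and the liver is their main site. Several members are regulated by xenobiotic-sensing receptors, by the oxidative stress factor NRF2 (gene Nfe2l2) or by sex-specific growth hormone release.

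The deposited values were log2 model-based expression indices, a summary over the probes of a probe set. A difference of 1 on this scale is a 2-fold difference. The array medians lay between 7.09 and 7.16 and the correlations between arrays, across probe sets, between 0.991 and 0.996. In the brightest quartile of probe sets were 6 of 6 measured hepatocyte markers, against 38.6% of all genes. So were 6 of 8 Kupffer cell and macrophage, 4 of 7 stellate cell and fibroblast and 3 of 6 endothelial markers. Neutrophil and pancreas markers had 1 of 3 each there, and cholangiocyte (0 of 5), T and B cell (0 of 4) and kidney markers (0 of 3) none. The rank product test, which ranks every probe set in all 16 pairs of a PD with a CD array, called 89 of 45037 probe sets higher and 117 lower in PD at a false discovery rate (FDR) under 0.1. Whether less RNA of a gene per cell or fewer cells expressing it lay behind a value cannot be told apart in whole liver.

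No conjugation gene was called in either direction by the rank product, 0 of 41 higher and 0 of 41 lower, where the test called 0.198% and 0.26% of all probe sets. The lowest FDR toward higher values was 0.762, for Sult2a2, and toward lower values 0.544, for Gstm7. The rank product does not set a difference against the spread between mice, which was largest in Sult2a2. Sult2a2 had a lower mean in PD (difference -0.07), and its FDR toward lower values was 0.616. By limma, 2 of 41 genes (4.88%) had an unadjusted p under 0.05, against 3.65% of all probe sets, and 0 of 41 had an adjusted p under 0.1, against 0% of all probe sets. The lowest limma adjusted p was 0.998. The groups did not overlap in 1 of 41 genes (2.44%), against 2.08% of all probe sets. These shares were near the background of the array. The 2 genes with an unadjusted p under 0.05 were Gstm5, whose groups did not overlap, and Ugt2b1.

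The 95% limma interval of the diet difference lay within a 1.5-fold change in either direction (0.585 on the log2 scale) for 40 of 41 genes, and within 1.2-fold for 22 of 41 genes. The exception at 1.5-fold was Sult2a2, with an interval of -0.79 to 0.65. The median absolute difference was 0.065 for the 41 genes and 0.043 for all genes. The median difference was -0.02 for Gst, -0.07 for Ugt and 0.02 for Sult genes, against -0.01 for all genes. The Ugt median was -0.02 without CD mouse 2 or without PD mouse 2, and -0.04 with the shared probe sets added. Within Gst, 9 genes had a higher and 9 a lower mean in PD, and within Sult 8 were higher and 5 lower. The Gst median changed sign without PD mouse 2 (0.00) and when dim probe sets were left out (0.01), and the Sult median without CD mouse 3 or PD mouse 2 (-0.02 each) and when a gene's probe sets were averaged (-0.00).

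**Figure D1:**
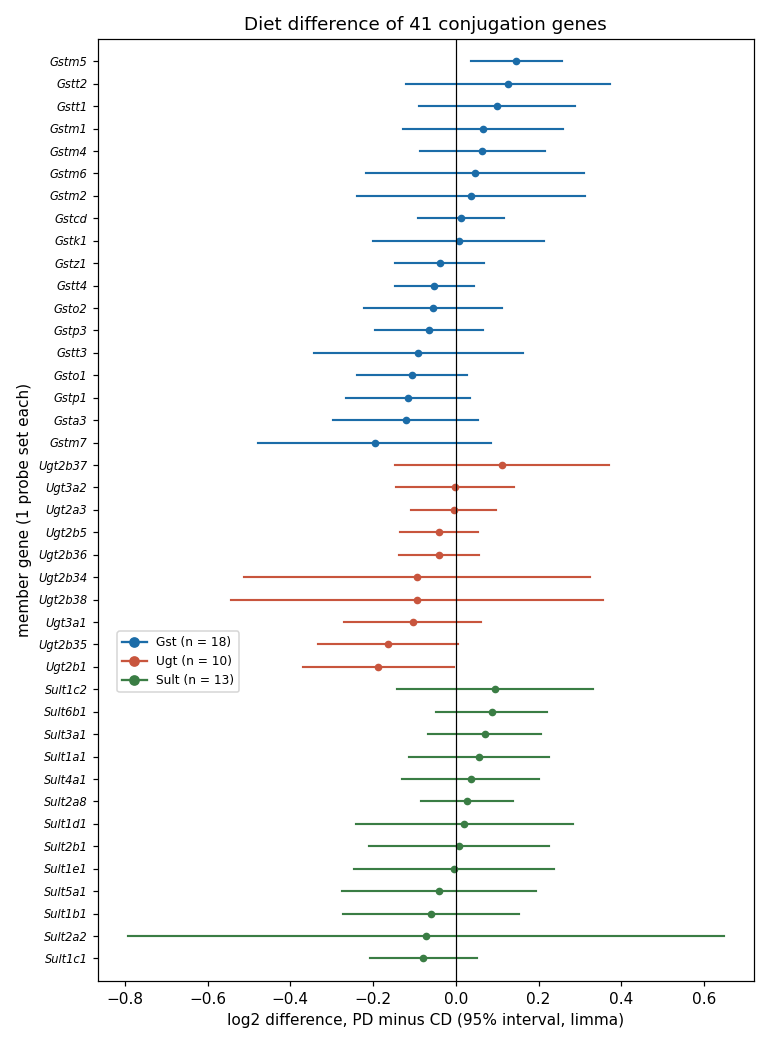
The log2 difference between PD and CD (horizontal axis, PD minus CD) is plotted for each of the 41 conjugation genes, with points for the estimates and lines for the 95% limma intervals (4 mice per group). Only the intervals of Gstm5 and Ugt2b1 leave out 0, and that of Sult2a2, from -0.79 to 0.65, is the widest.

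The families differed in brightness. In the brightest quartile of probe sets were 15 of 18 Gst and 9 of 10 Ugt genes but 5 of 13 Sult genes, against 38.6% of all genes. The median log2 value was 10.46 for Gst, 12.14 for Ugt and 7.81 for Sult genes. Brightness depends on the probes as well as on the transcript, so these are levels of probe sets and the genes are not ranked by transcript amount. The families' spread between mice of the same diet, the pooled within-group SD, had a median of 0.126 for Gst, 0.123 for Ugt and 0.166 for Sult genes, against 0.0845 for all genes. Of the 41 genes, 31 had a larger SD than the median gene of their own brightness quartile, namely 12 of 18 Gst, 7 of 10 Ugt and 12 of 13 Sult genes.

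**Figure D2:**
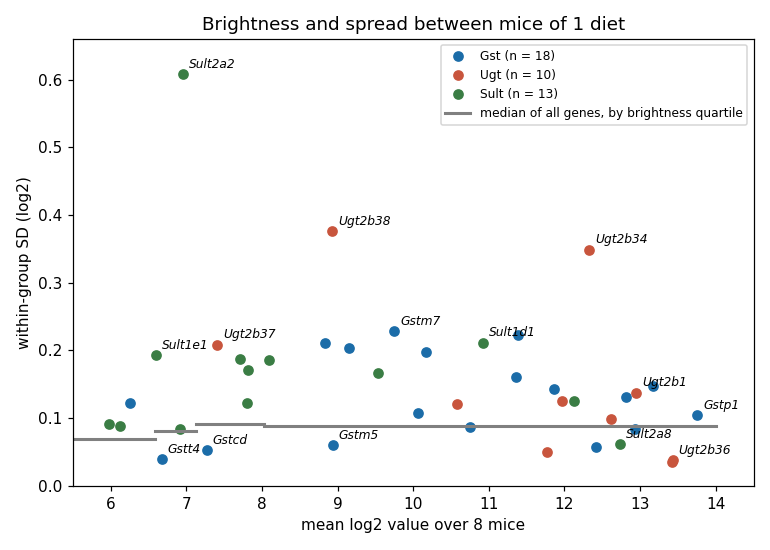
Each point is 1 conjugation gene, with its mean log2 value over 8 mice on the horizontal axis and its within-group SD (log2) on the vertical axis, and the grey lines are the medians of all genes in each brightness quartile. Most points lie above the grey lines, Sult2a2 stands highest at an SD of 0.61, and the bright Ugt2b36 lies at 0.039.

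The mu class of Gst enzymes, cytosolic transferases that act on epoxides and aromatic electrophiles, had 6 members, all in the brightest quartile. Of these, 5 had a higher and 1 a lower mean in PD. Gstm5 had log2 values of 8.88, 8.93, 8.83 and 8.81 in CD mice 1 to 4 and of 9.06, 9.07, 8.95 and 8.96 in PD mice 1 to 4. Every PD mouse was above every CD mouse, and the nearest were PD mouse 3 and CD mouse 2. The means were 8.86 ± 0.06 in CD and 9.01 ± 0.06 in PD (SD, n = 4 each), a difference of 0.15 (95% interval 0.04 to 0.26), or 1.11-fold. The two-sided exact permutation p was 0.0286, the smallest that 4 against 4 mice allow and the value any non-overlapping groups give. The limma p of 0.0142 was unadjusted, and the rank product FDR toward higher values was 0.913.

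Gstm7, a mu class gene on the same chromosome, had the opposite sign. Its values were 9.94, 10.21, 9.58 and 9.67 in CD and 9.55, 9.87, 9.55 and 9.64 in PD mice 1 to 4, so that the groups overlapped and CD mouse 2 was the highest. The difference was -0.20 (95% interval -0.48 to 0.09, limma unadjusted p = 0.152). Gstm1, the brightest mu class member, had means of 13.13 ± 0.19 in CD and 13.20 ± 0.08 in PD (SD, n = 4 each). Gstm2 and Gstm6 were among the most variable Gst genes, with within-group SDs of 0.223 and 0.212 and differences of 0.04 and 0.05. All 6 mu class genes lie on chromosome 3 of GRCm38.p6, and near-identical sequence can let a probe set of one detect its neighbours.

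The regions before the transcript starts were read from RefSeq (GRCm38.p6) for 37 of 41 genes, with 250 bases before each listed start. The core of the antioxidant response element, the sequence bound by NRF2 (TGACNNNGC, either strand), was present in 3 of 37 genes, Gsta3, Gstm5 and Gstm7, against 11.5% of all genes and 10.2% of 32851 promoters. The Gstm7 match lay before only one of its listed starts. A match is a description and no measure of binding. Shown are the promoters of Gstm5 and Ugt2b1, the 2 genes with an unadjusted p under 0.05, and of Gsta3, which held the core as Gstm5 did. They run 5′ to 3′, with the core in capitals. For Gstm5 and Gsta3, a listed start was shown only if its 250 bases held the core. In Gsta3 an HNF1 motif (GTTAAT, here on the opposite strand and found in 5 of 37 genes against 7.49% of all genes) is in capitals too.
Gstm5 (chr3:107895604-107895853, + strand): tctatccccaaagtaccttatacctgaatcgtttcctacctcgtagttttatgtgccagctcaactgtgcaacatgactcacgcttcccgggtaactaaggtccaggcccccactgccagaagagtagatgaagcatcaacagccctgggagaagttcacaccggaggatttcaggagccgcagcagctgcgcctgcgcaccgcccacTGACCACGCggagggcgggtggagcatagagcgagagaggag
Gsta3 (chr1:21240335-21240584, + strand): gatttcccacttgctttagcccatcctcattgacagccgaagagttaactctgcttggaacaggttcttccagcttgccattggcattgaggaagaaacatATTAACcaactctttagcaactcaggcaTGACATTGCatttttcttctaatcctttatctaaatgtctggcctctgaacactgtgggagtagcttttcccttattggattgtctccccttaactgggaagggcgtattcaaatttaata
Ugt2b1 (chr5:86926504-86926753, - strand): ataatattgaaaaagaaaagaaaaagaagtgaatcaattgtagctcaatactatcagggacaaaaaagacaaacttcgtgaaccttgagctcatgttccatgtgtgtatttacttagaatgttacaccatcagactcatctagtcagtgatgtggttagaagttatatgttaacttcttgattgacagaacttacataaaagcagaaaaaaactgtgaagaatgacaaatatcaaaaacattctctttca
The core began 42 bases before the start in Gstm5 and 121 bases before it in Gsta3, where the HNF1 motif began 149 bases before the start. The 250 bases before Ugt2b1 held none of the 4 motifs searched, which were these and a TATA box (TATAAA, in 5 of 37 genes against 14.3% of all genes) and an HNF4 core (CAAAGTCCA, in 0 of 37 genes against 0.451%).

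Gsta3, the single alpha class member kept by the rule and an enzyme that detoxifies aflatoxin epoxide in mice, had values of 12.94, 12.99, 12.76 and 12.81 in CD and 12.83, 12.53, 12.79 and 12.86 in PD mice 1 to 4. PD mouse 2 was the lowest, the groups overlapped, and the difference was -0.12 (95% interval -0.30 to 0.05). Both pi class genes were among the brightest of all members. Gstp1, which is known to be higher in male than in female mouse liver, had means of 13.82 ± 0.09 in CD and 13.70 ± 0.12 in PD, and Gstp3 had 12.97 ± 0.08 in CD and 12.90 ± 0.09 in PD (SD, n = 4 each). Neither difference, -0.12 and -0.07, had an interval that left out 0.

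Gsto1, an omega class enzyme that reduces dehydroascorbate and methylated arsenic, had values of 10.87, 10.82, 10.68 and 10.86 in CD and 10.80, 10.68, 10.74 and 10.59 in PD mice 1 to 4. CD mouse 3 lay among the PD mice, and the difference was -0.11 (95% interval -0.24 to 0.03). Its second probe set differed by -0.19 (95% interval -0.37 to -0.01, limma unadjusted p = 0.0406). Of the 4 theta class genes 2 had a higher and 2 a lower mean in PD, and the brightest, Gstt1, differed by 0.10 (95% interval -0.09 to 0.29). The other theta class genes, Gstt2, Gstt3 and Gstt4, differed by 0.13, -0.09 and -0.05, the second omega class gene Gsto2 by -0.06 and the mu class gene Gstm4 by 0.06, each with an interval that included 0. Gstz1, the maleylacetoacetate isomerase of tyrosine breakdown, was steady between mice, with an SD of 0.057, and differed by -0.04. Gstk1, a mitochondrial and peroxisomal transferase, had means of 11.36 in both groups, but its SD was 0.04 in CD and 0.22 in PD, where PD mouse 2 was at 11.05 and PD mouse 4 at 11.55. Gstcd, a gene that shares only the C-terminal domain of the family, was dimmer, at a mean of 7.27, and differed by 0.01.

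The Ugt genes had 1 gene with a higher and 9 with a lower mean in PD, a split that became 3 to 7 when each array was centred on its median or when CD mouse 2 or PD mouse 2 was left out. The 9 with lower means were the 9 in the brightest quartile. The median absolute difference of the Ugt genes was 0.093, against 0.043 for all genes and 0.050 for all genes in the brightest quartile. Their median spread between mice was also larger than that of all genes (SD 0.123 against 0.0845), and 9 of 10 Ugt intervals included 0. Ugt2b1, which glucuronidates steroids and many drugs, had values of 13.11, 13.11, 12.82 and 13.11 in CD and 12.99, 12.82, 12.91 and 12.68 in PD mice 1 to 4. CD mice 1, 2 and 4 lay above all PD mice, and CD mouse 3 lay within the PD range. The means were 13.04 ± 0.14 in CD and 12.85 ± 0.13 in PD (SD, n = 4 each), a difference of -0.19 (95% interval -0.37 to -0.00), or 0.878-fold. The limma p of 0.0453 was unadjusted, the exact permutation p was 0.114, and the limma p stayed under 0.05 in only some of the alternative settings.

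Ugt2b35, named after its values were seen, came next, with 11.96, 12.11, 11.95 and 12.16 in CD and 11.99, 11.93, 11.67 and 11.94 in PD mice 1 to 4. PD mouse 1 lay above CD mice 1 and 3, and the difference was -0.16 (95% interval -0.33 to 0.01, limma unadjusted p = 0.057). The 2 brightest Ugt genes were the steadiest of the 41, Ugt2b5 with an SD of 0.035 and Ugt2b36 with 0.039, at the 2.3 and 3.7 percentile of the SDs in their brightness quartile. Their means were 13.44 and 13.45 in CD and 13.40 and 13.41 in PD.

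Other Ugt2b genes varied far more. Ugt2b34 was as low as 11.86 in CD mouse 3 and 11.78 in PD mouse 2, while the other 6 mice lay between 12.27 and 12.61. Ugt2b38 ranged from 8.32 in PD mouse 1 to 9.38 in PD mouse 3, a range over 8 mice of 1.06 that was set by mice on the same diet. Their within-group SDs were 0.349 and 0.376. Ugt2b37, the dimmest Ugt gene, was the one with a higher mean in PD, 7.35 ± 0.13 in CD and 7.46 ± 0.27 in PD (SD, n = 4 each). Ugt2a3 differed by -0.01 and Ugt3a2, which uses UDP-glucose or UDP-xylose in place of UDP-glucuronic acid, by -0.00. Ugt3a1, which transfers N-acetylglucosamine, differed by -0.10 (95% interval -0.27 to 0.06). The 8 Ugt2 genes lie on chromosome 5 of GRCm38.p6, with the sulfotransferases Sult1b1, Sult1d1 and Sult1e1.

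The 3 probe sets shared by 8 Ugt1a genes, which include the bilirubin-conjugating Ugt1a1, were in the brightest quartile, at means of 13.03, 13.32 and 12.69. They differed between the diets by -0.00, 0.02 and -0.03, with all 3 intervals between -0.13 and 0.12. A change of one Ugt1a gene can be hidden in such a shared value. The probe set shared by Ugt2a1 and Ugt2a2 had a mean of 7.34 and differed by 0.01.

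**Figure D3:**
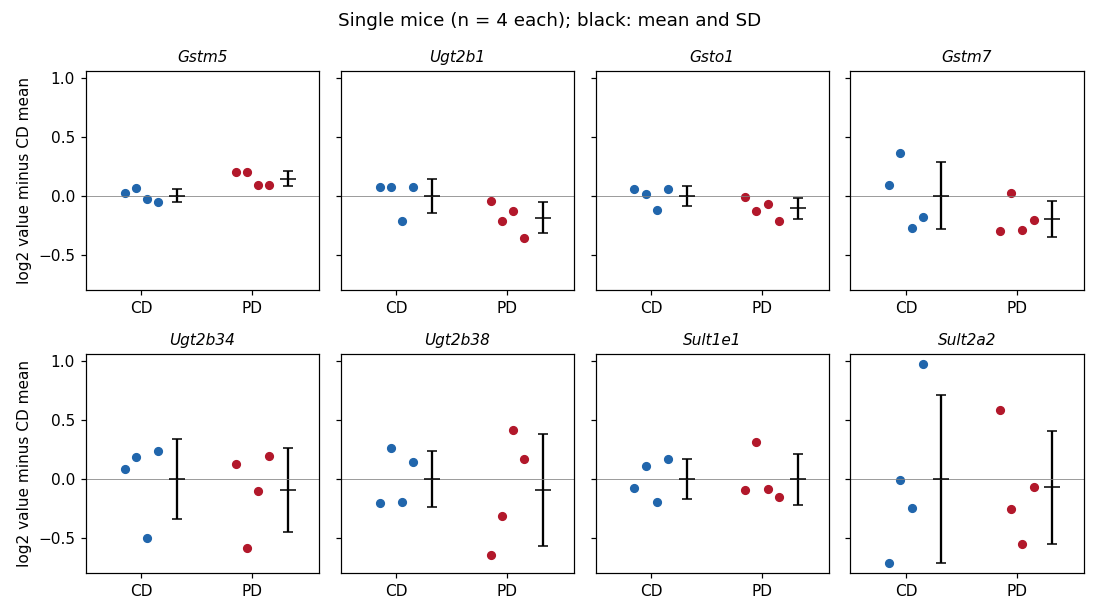
The values of single mice for 8 genes are plotted as log2 values minus the CD mean of the gene, in blue for CD and red for PD (4 mice each), with the mean and SD in black. Only Gstm5 has PD mice that all lie above the CD mice, and CD mouse 3 of Ugt2b1 (12.82) and PD mouse 2 of Sult1e1 (6.92) stand apart from the rest of their groups.

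The dimmest and the most variable of the 41 members, Sult3a1 and Sult2a2, were sulfotransferases. The next largest within-group SDs were those of Ugt2b38 (0.376) and Ugt2b34 (0.349). Sult2a8, which sulfates bile acids, was the brightest, with means of 12.72 ± 0.04 in CD and 12.74 ± 0.08 in PD (SD, n = 4 each) and a difference of 0.03 (95% interval -0.08 to 0.14). Sult1a1, the main phenol sulfotransferase of liver, had 12.10 ± 0.16 in CD and 12.16 ± 0.08 in PD, a difference of 0.06 (95% interval -0.11 to 0.23). Sult1d1, which acts on catecholamines and other amines, ranged from 10.59 in CD mouse 3 to 11.13 in CD mouse 2 and differed by 0.02. The sign of the Sult1d1 difference was opposite at its second probe set.

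Sult2a2, a relative of the hydroxysteroid sulfotransferases that are higher in female than in male mouse liver, had the largest spread of all 41 genes, with an SD of 0.609. Its values were 6.27, 6.98, 6.74 and 7.96 in CD and 7.57, 6.73, 6.43 and 6.92 in PD mice 1 to 4. The highest and the lowest of the 8 mice, CD mouse 4 and CD mouse 1, were on the same diet, and the diet difference was -0.07. Sult1e1, the estrogen sulfotransferase, had 6.52, 6.71, 6.40 and 6.77 in CD and 6.51, 6.92, 6.51 and 6.45 in PD mice 1 to 4. PD mouse 2 was the highest of all 8 mice, the other PD mice lay within the CD range, and the difference was -0.00 (95% interval -0.25 to 0.24). Sult3a1, also known to be higher in females, was the dimmest member, at a mean of 5.97, and differed by 0.07.

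Among the remaining Sult genes, Sult4a1, known chiefly from brain, had a mean of 7.81 and differed by 0.04, with the opposite sign at its second probe set. Sult5a1 and Sult6b1 had means of 8.09 and 6.12 and differed by -0.04 and 0.09. Sult1b1, Sult1c1 and Sult1c2 differed by -0.06, -0.08 and 0.09, and the cholesterol sulfotransferase Sult2b1 by 0.01. The signs of 8 of 10 second probe sets, over all 3 families, were the same as those of the probe sets used. Of sex-biased liver genes outside these families, 2 of 6 female-high genes were called higher in PD, Cyp2b9 and Acot3 (differences 0.51 and 0.52). Of male-high genes 1 of 6 was called lower, Elovl3 (-0.40). The rank product called 0.198% of all probe sets higher and 0.26% lower. Cyp2b9 was at 9.69 in PD mouse 4, while PD mice 1 to 3 (7.30 to 7.54) lay within the CD range, and Acot3 was also highest in PD mouse 4 (8.56). The other female-high genes, Cyp2b13, Cyp17a1, Hao2 and Cux2, differed by 0.09, 0.08, 0.06 and -0.03. Of the other male-high genes, Slco1a1 differed in the direction opposite to Elovl3 (0.26). Cyp7b1, C8b, Cyp4a12a and Cyp2d9 differed by -0.14, -0.06, -0.01 and 0.01. These uncalled genes were named after their values were seen. The groups of the 3 called genes overlapped. Their unadjusted limma p values were 0.312 (Cyp2b9), 0.0589 (Acot3) and 0.0965 (Elovl3). Whether sex-biased regulation had a part in the values of Sult2a2 and Sult1e1 was not tested.

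Some mice were high or low in many genes. CD mouse 2 was the highest of the 8 mice in 16 of 41 genes, 6 Gst, 5 Ugt and 5 Sult genes, and its median deviation from the mean of 8 mice was 0.10. PD mouse 2 was the lowest in 12 of 41 genes, of which 6 were Gst and 4 Ugt genes, with a median deviation of -0.06. CD mouse 3 was the highest in 0 genes and had its lowest family median in Sult genes, -0.13.

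**Figure D4:**
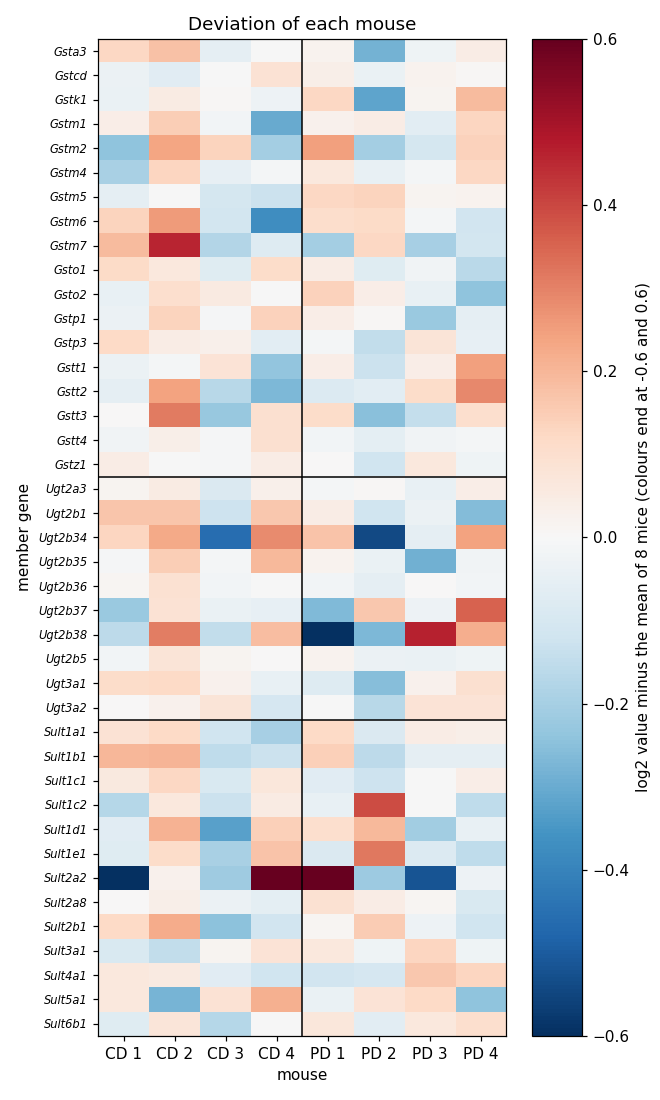
Rows are the 41 genes grouped by family, columns the 8 mice, and the colour is the log2 value minus the gene's mean over 8 mice, red above and blue below, with colours ending at 0.6 in either direction. CD mouse 2 is red in most rows, with a median deviation of 0.10, and no family changes colour as a block between CD and PD.

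Pairs of members were correlated over the 8 mice, an analysis chosen after the data were seen, and 0 of 820 pairs had an adjusted permutation p under 0.05. The pair with the smallest p was Gsto1 and Ugt2b1 (Pearson r = 0.986, permutation p = 0.000248, adjusted p = 0.203, and Spearman rho = 0.905, permutation p = 0.00456, adjusted p = 0.594). Its r was 0.973 without the 2 mice farthest from the median of Gsto1. Within CD mice it was 0.965 and within PD mice 0.999, each over only 4 mice.

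The genes that supply the cosubstrates were measured beside the enzymes. For glutathione, 1 of 8 genes was called, Chac1, a glutathione-degrading enzyme, which was lower in PD by the rank product (FDR 0.0529). The rank product called 0.26% of all probe sets lower. Chac1 had means of 8.85 ± 0.47 in CD and 8.47 ± 0.49 in PD (SD, n = 4 each). Its groups overlapped, and its limma unadjusted p was 0.166. The brightest gene of this list was Cth, which makes cysteine, and it differed by -0.12. For UDP-glucuronic acid, 0 of 7 genes were called. Ugp2, which makes UDP-glucose, had a difference of 0.16 with overlapping groups (limma unadjusted p = 0.0408, exact permutation p = 0.114). It was the 1 of 7 genes with an unadjusted limma p under 0.05, against 3.65% of all probe sets. For PAPS, 0 of 6 genes were called, and the list's brightest gene, the sulfate transporter Slc26a1, differed by -0.02. The median differences of the 3 lists were -0.10, 0.01 and 0.01.

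Of the genes that remove or export conjugates, 0 of 6 deconjugating enzymes and 0 of 8 transporters were called. Ggt5, the brightest of the first, differed by 0.02. Abcb11, the bile salt export pump, had means of 10.85 ± 0.18 in CD and 10.63 ± 0.14 in PD (SD, n = 4 each), a difference of -0.22. Its groups overlapped (limma unadjusted p = 0.0397, exact permutation p = 0.143). It was the 1 of 8 transporters with an unadjusted limma p under 0.05, against 3.65% of all probe sets. The brightest transporter, Abcg2, differed by -0.07. Among 13 other conjugation enzymes 0 were called. The brightest, the microsomal Mgst1, was nearly the same in all mice, with 14.28 ± 0.03 in CD and 14.28 ± 0.02 in PD (SD, n = 4 each). The arsenic methyltransferase As3mt differed by 0.28 with overlapping groups (limma unadjusted p = 0.0437, exact permutation p = 0.171). It was the 1 of 13 with an unadjusted limma p under 0.05.

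Of 20 regulators of these genes 0 were called, with 9 higher and 11 lower means in PD. Nfe2l2 differed by 0.08, Nr1i3, which encodes the receptor CAR, by -0.23 and Nr1i2, which encodes PXR, by -0.04. These 3 were named after their values were seen. Foxa3, a liver transcription factor, was the 1 of 20 regulators with an unadjusted limma p under 0.05 (0.0151), against 3.65% of all probe sets. Its difference was -0.18, with overlapping groups (exact permutation p = 0.0571). The brightest regulator, Hnf4a, differed by -0.11. Among hepatocyte markers, Tat, the tyrosine aminotransferase, was called lower in PD (-0.44, FDR 0.0301) with groups that did not overlap, while the brightest, Alb, differed by -0.00. The other 4 hepatocyte markers, also named after their values were seen, differed by -0.28 (Ass1), 0.11 (Apoa1), -0.00 (Ttr) and -0.00 (Cps1). Of 7 stellate cell and fibroblast markers 5 had a higher and 2 a lower mean in PD, with a median difference of 0.17. Among them Col3a1 was called higher (0.37), but its unadjusted limma p was 0.0686. Its groups overlapped, and CD mouse 3 was the highest of all 8 mice (8.99). Lrat had an unadjusted limma p of 0.013 (0.28), also with overlapping groups, while Col1a1 and Des differed by -0.02 and -0.01. Among 3 neutrophil markers S100a9 had an unadjusted limma p of 0.0214 (-0.27) with overlapping groups, and S100a8 and Elane differed by -0.11 and 0.05. None was called among 5 cholangiocyte, 8 Kupffer cell and macrophage, 6 endothelial, 4 T and B cell, 3 pancreas and 3 kidney markers. The part of cell composition in the values of the conjugation genes was not tested.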

How the data were processed

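Liver RNA of 8 mice was hybridised to Affymetrix mouse arrays, 1 per mouse. The authors deposited log2 model-based expression indices. The submitters' processing notes name R 2.7.2. The normalisation between arrays was not stated in the paper, labels or file headers. These log2 values were used as deposited, without 64 control probe sets. Of the 45037 others, 34945 had 1 gene symbol, 932 several and 9160 none. The main test was the rank product (1000 permutations, FDR under 0.1). The second was limma 3.58.1 (R 4.3.3, Benjamini-Hochberg adjustment), which also gave the intervals. Single genes had two-sided exact permutation tests over all splits of the 8 mice (numpy 2.4.6). Scripts were tested on simulated data.

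Members named were called, separated, under p 0.05 by limma, the brightest of a subfamily, or among the 3 brightest or most variable of a family. Of other lists, called, separated or p under 0.05 genes and the brightest of the pathway lists were named, others complete a list or are marked, and the remaining members are given by their differences. Members and lists were chosen with earlier results of these data known. The labels call the arrays biological replicates. Same-numbered mice did not deviate together (correlations -0.06 to -0.00), so numbers were not used as pairs. Alternatives were another normalisation, scale, filter, probe set rule, variance model, t-test, block, and leaving out each mouse.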

Additional observations from a re-analysis of the deposited data

Results flagged for a closer look

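In 60 groups of 4 mice (30 named genes), the extreme mouse was compared with the rest of its group. In 2 groups a mouse lay far from the others, where chance gives about 1 in 20 independent, unselected groups. Some of these genes were named for their spread, and all were measured in the same 8 mice, so that rate is only a rough guide. Sult1e1 was at 6.92 in PD mouse 2, while the other PD mice lay between 6.45 and 6.51, a gap of 0.855 of the range. Ugt2b1 was at 12.82 in CD mouse 3, while the other CD mice were at 13.11, a gap of 0.988 of the range.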

How the results depend on the processing

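The rank product called 0 of the conjugation genes in either direction under every setting it was run with. No family's median difference moved by more than the SD between mice of the family's median value. Leaving out 1 of 4 mice can hardly move a median that far, so this is no measure of stability. The Gst and Sult medians changed sign, and the Ugt median ranged from -0.09 to -0.02. The count with an unadjusted limma p under 0.05, which was 2, fell to 1 after quantile normalisation, after centring each array on its median, when dim probe sets were left out (34 genes remained) and with the methods' t-test, and rose to 3 with array weights or with trend and robust variances (Ugt2b35 added) and when a gene's probe sets were averaged (Gsto1 added). Leaving out single mice gave 1 to 6 such genes, the 6 without CD mouse 3 and 4 without PD mouse 1. Gstm5 was under p 0.05 in all of these settings. Its groups were also separated in all, but only quantile normalisation and median centring could have changed this. Ugt2b1 was not under p 0.05 in those with a count of 1, without CD mouse 1 or 2, or with the block. Separated genes numbered 1 to 4 when single mice were left out, 4 without CD mouse 3, 3 without PD mouse 1 and 2 without CD mouse 1. Leaving out a mouse can only keep or raise this count. With the replicate number as a block the limma count was 3 (Gstm5, Gstm7 and Ugt2b35), and the rank product over same-numbered pairs called 0 genes in either direction. Same-numbered mice share only a number here. Of 415 differences of named genes under the alternatives 40 changed sign. All stayed within 1 SD of the reported value, but leaving out 1 of 4 mice cannot move a difference that far. The number of arrays limits the precision, and the signal lies nearest to background in the 7 of 41 genes below the median brightness.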
